A study of Mus musculus and synthetic RNA with 74 samples.

Results

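Introns longer than 50000 bases were followed in single mouse embryos of the METTL16 knockout series. Of 199024 distinct introns, taken once per chromosome, start, end and strand, 3484 passed this length. An intron counted as a long intron of a stage when the authors' mean over all embryos of that stage was at least 10 normalized counts. By this rule 1279 long introns of 931 genes remained at E2.5, the morula stage, and 1702 of 1154 genes at E3.5, the blastocyst stage. They made up 36.7% and 48.9% of the introns over the length limit. Of the rest, 21 were listed at 0 at E2.5 and 2 at E3.5, and 2184 and 1780 lay above 0 and under 10.

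The series compared embryos of a line that carries a triple-stop codon cassette in exon 3 of Mettl16, obtained by injecting Cas9 and a repair template into B6D2F1/J zygotes and crossing founders to C57BL/6JRj mice. Embryos came from crosses between heterozygous parents and were sequenced singly: at E2.5 there were 5 WT, 14 HET and 12 KO embryos, and at E3.5 there were 18 WT, 9 HET and 12 KO embryos. Each value below is a mean of the authors over the 31 embryos of E2.5 or the 39 embryos of E3.5, pooled over the genotypes WT, HET and KO, and each stage was normalized by itself. The spread between embryos and the difference between genotypes are therefore not analysed here, no value has an SD and no test was run. Values of both stages are set side by side and not tested. The stages hold the genotypes in different proportions, so stage and genotype mix cannot be told apart in these values.

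Introns are transcribed as part of the precursor RNA and removed by splicing, some long ones in steps, while exons remain in the mature mRNA. Reads inside an intron can come from precursor RNA or from other genes that lie within it. They can also come from exons that other transcripts of the same gene have there. Very long introns are typical of genes for cell adhesion, transcription factors and signalling, many of them most active in neurons. METTL16 is an RNA methyltransferase that adds a methyl group to U6 snRNA, the spliceosomal RNA whose methylated box pairs with the start of the intron, and to hairpins in the Mat2a mRNA. Mettl16 itself has no long intron: its longest intron spans 11527 bases.

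The ends of the long introns were read from the GRCm38 genome (mm10), because the start of the intron is the part that U6 snRNA contacts. In the lines below the last 3 exon bases and the first 12 intron bases of 8 introns are given on the transcribed strand, with the first 2 intron bases in capitals. They include introns with the highest means and, for comparison, the intron of Ccnd3 with the lowest intron to exon ratio.
Cmss1, chr16:57323544-57606665, minus strand: cagGTaagctctcgc
Filip1l, chr16:57353459-57506598, plus strand: atgGTaagctaagtg
Parp8, chr13:116938782-117024174, minus strand: aagGTatttatgtgt
Jarid2, chr13:44731917-44823379, plus strand: tacGTaagtgctctt
Fmnl2, chr2:52858260-53014802, plus strand: ctgGTgagtgagtcc
Ssh2, chr11:77216516-77327452, plus strand: tcgGTgagtccctcc
Auts2, chr5:132259137-132541514, minus strand: gagGTaaggggggac
Ccnd3, chr17:47505267-47578708, plus strand: tcgGTgagttcatct

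The 3' end of an intron usually has a pyrimidine-rich stretch before its closing AG. Shown are the last 24 intron bases, closing AG in capitals, and the next 3 exon bases of 4 of these introns.
Cmss1: ctaattttttttatcccctttcAGagc
Fmnl2: tctttttactttttattttcacAGaat
Auts2: ctttctttttcttcttttatgcAGaaa
Ccnd3: tgtctctgatctttcatcctgcAGccc

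All 8 introns shown began with GT, and among all long introns 99.1% at E2.5 and 99.2% at E3.5 began with GT and ended with AG. GC at the start with AG at the end was found in 7 long introns at E2.5 and 10 at E3.5. The fourth intron base was A in 77.6% of the long introns at both stages, against 75.6% and 75.1% of the introns over the length limit that stayed under a mean of 10, and 70.8% and 71.5% of shorter introns with a mean of at least 10. The start GTAAGT was present in 18.7% and 19.0% of the long introns, in 20.6% and 20.7% of the introns over the length limit under the minimum mean, and in 14.2% and 15.4% of the shorter ones. Parp8 had T and Fmnl2 had A as the fourth base.

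The nonamer UACAGAGAA, which the series used as the fixed core of its in vitro METTL16 substrate and which matches the methylated box of U6, was searched as TACAGAGAA on the transcribed strand. It occurred 19.2 times per Mb in the long introns at E2.5 and 18.7 times per Mb at E3.5, against 17.05 and 17.03 per Mb in the introns over the length limit that stayed under the minimum mean. On the other strand the same letters occurred 25.02 and 23.99 times per Mb in the long introns. In the introns under the minimum mean they occurred 20.20 and 20.04 times per Mb there, also more than on the transcribed strand. Among long introns of 60 to 90 kb 72.5% held a match on the transcribed strand at E2.5 and 69.3% at E3.5, and 67.68% and 69.81% of the introns of that length under the minimum mean did. A match is a string of letters, not a site of methylation. The long introns were also richer in G and C, with a median of 43.0% at E2.5 and 42.6% at E3.5, than the introns over the length limit under the minimum mean, at 40.5% and 40.2%.

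Marker genes of the embryonic lineages were detected at both stages. In the authors' gene means from Salmon, the trophectoderm keratins Krt8 and Krt18 stood at 651 and 1332 at E2.5 and at 30838 and 35173 at E3.5, Nanog at 552 and 4161, and the oocyte gene Zp3 at 1587 and 104. Other lineage markers had the higher mean at E2.5: the trophectoderm gene Tfap2c stood at 5278 and 1849, the pluripotency gene Pou5f1 at 9017 and 3527 and the primitive endoderm gene Gata4 at 1268 and 253. Neuronal markers were near 0: Snap25, Syt1, Rbfox3 and Stmn2 lay between 0.033 and 4.73. Of the cumulus and granulosa markers Amhr2 stood at 997 and 143, and Amh, Has2 and Inhba were under 4 at both stages. The part of such cells in the long introns was not tested. Summed over all distinct introns, the mean was 2696370 normalized counts at E2.5 and 3432490 at E3.5.

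The long introns were spread over a wide range of levels. Their median mean was 48.1 normalized counts at E2.5, with quartiles of 20.3 and 131, and 99.8 at E3.5, with quartiles of 31.3 and 289. At E2.5, 33 long introns exceeded a mean of 1000 and 317 lay under 20, and at E3.5, 92 exceeded 1000 and 268 lay under 20. Per kb the median was 0.587 at E2.5 and 1.24 at E3.5. The median length was 78203 bases at E2.5 and 79098 bases at E3.5. Several long introns can overlap, because transcripts of 1 gene start or end at different exons. After overlapping introns were joined, 1095 separate stretches were left at E2.5 and 1469 at E3.5.

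**Figure D1:**
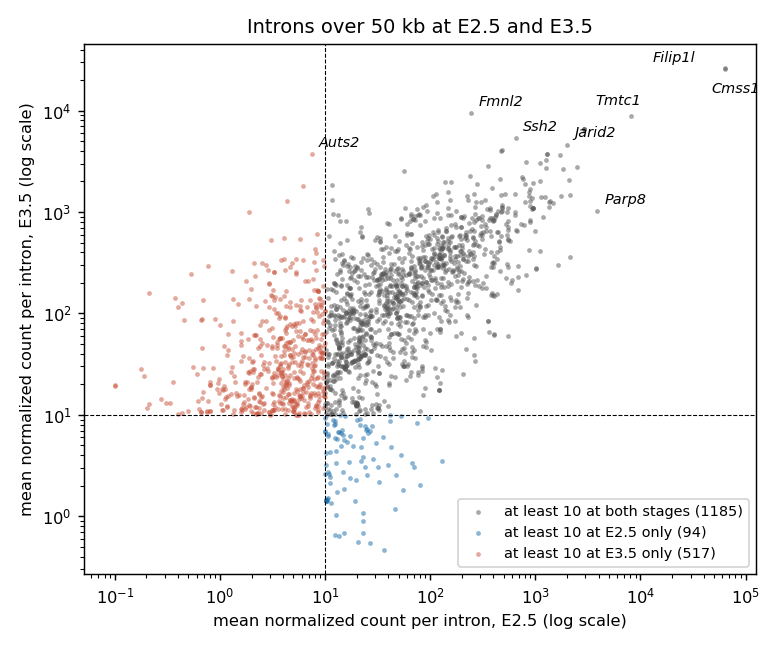
Mean normalized count of each intron over 50 kb that reached 10 at either stage, E2.5 on the horizontal and E3.5 on the vertical log axis. Each point is 1 intron and values under 0.1 are drawn at 0.1. Dashed lines mark a mean of 10. The 1185 introns in the upper right passed at both stages, 94 only at E2.5 and 517 only at E3.5, and Cmss1 and Filip1l lie far above the rest at both.

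A pair of introns on chromosome 16 stood far above all others. The first intron of Cmss1, which encodes a homologue of a yeast ribosomal small subunit protein, had a mean of 64366 at E2.5 and 26254 at E3.5. That of Filip1l, which encodes a filamin A interacting protein, had 63829 and 25625. The Filip1l intron lies wholly inside the Cmss1 intron on the opposite strand, and Smart-seq2 libraries keep no strand, so their reads cannot be told apart. The highest exon of another gene that the authors counted inside the Cmss1 intron belonged to Filip1l. It came to 0.076% of the mean of the intron at E2.5 and to 0.357% at E3.5. Other introns of the same transcripts were low: they averaged 0.591 normalized counts per kb in Cmss1 and 1.70 in Filip1l at E2.5, against 227 and 417 for the long introns. Both introns together held 39.6% of the summed mean of the long introns at E2.5 and 9.89% at E3.5. Sums over long introns take overlapping introns separately, so reads in shared bases may be counted more than 1 time.

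The next levels belonged partly to other genes nested in the intron. The intron of Tmtc1, a mannosyltransferase of the endoplasmic reticulum, spanned chr6:148336333-148411037 and had means of 8178 and 8888, and an exon of Rps4l, which encodes a ribosomal protein S4-like protein, inside it held 99.6% and 99.1% of that value. The introns of Gm37013, Gm38666 and Gm38667 cover the protocadherin cluster of chromosome 18, share nearly all of their bases and had a mean of 2908 to 2909 at E2.5 and 6562 at E3.5. An exon of Taf7, a subunit of the general transcription factor TFIID, held 89.1% of it at E2.5 and 87.1% at E3.5. Nested exons also filled much of the long introns of Mipol1, from Prps1l3 with 97.9% and 92.6%, and of Pnkd, from Tmbim1 with 65.8% at E3.5.

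**Figure D2:**
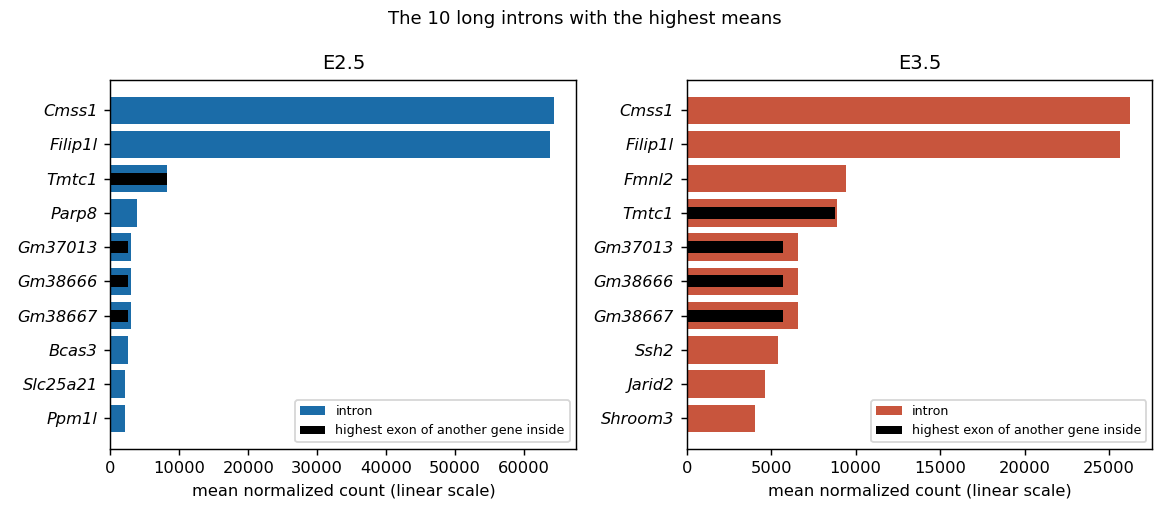
The 10 long introns with the highest mean at each stage (bars, mean normalized count on a linear scale) with the highest single exon of another gene lying inside the intron (black). Only exons counted by the authors are drawn. The bars of Tmtc1 and of the Gm37013, Gm38666 and Gm38667 introns are almost filled by such an exon, and those of Parp8, Fmnl2, Ssh2 and Jarid2 are not.

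In most long introns no single exon of another gene counted by the authors held 50% of the mean. An exon of another gene, on either strand, lay inside 60.5% of the long introns at E2.5 and 58.2% at E3.5. Genes for lncRNAs were the most frequent among the types counted, in 36.2% and 34.1% of the long introns, followed by processed pseudogenes in 21.97% and 22.03%. Protein-coding exons lay in 129 and 125 long introns, microRNA genes in 75 and 103, and snoRNA genes in 46 and 58. The highest nested exon reached 50% of the mean of the intron in 28 long introns at E2.5 and 29 at E3.5, and 90% in 5 and 6. Nested genes were taken from GENCODE, but signal only from exons that the authors counted, and only from the highest of them. Nested genes without a counted exon are therefore not covered, so these numbers are lower limits. Exons of the same gene inside the intron were left out, so an intron with no other gene inside can still hold exon signal. The 505 and 712 long introns with no other gene inside had median levels per kb of 0.640 and 1.28, close to those of all long introns. They held 21.4% and 32.0% of the summed mean.

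After Cmss1 and Filip1l, among the long introns with high means and little or no counted nested exon signal, those of Parp8, Bcas3, Slc25a21 and Ppm1l led at E2.5. Parp8 encodes a poly(ADP-ribose) polymerase family member, and its intron 3, with no other gene inside, had a mean of 3878, the fourth highest at E2.5, and of 1021 at E3.5, rank 87. The first intron of Slc25a21, a mitochondrial carrier for oxodicarboxylates, stood at 2152 and 363. That of Ppm1l, a protein phosphatase, stood at 2117 and 1457, and an intron of Bcas3 at 2504 and 2761. The Bcas3 intron spans chr11:85583995-85801784, on the chromosome that also carries Mettl16.

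At E3.5 the long introns of Fmnl2, Ssh2, Jarid2 and Shroom3 were also among the 10 highest. Fmnl2, a formin that nucleates actin filaments, had a mean of 9416, rank 3, in its first intron, which was at 247, rank 186, at E2.5. Ssh2, a phosphatase that activates cofilin, had 5399 in its first intron at E3.5, rank 8, and 657 at E2.5, rank 60. The Ssh2 intron, like that of Bcas3, lies on chromosome 11. Shroom3, an actin-binding protein of apical constriction, had 4057 in its second intron at E3.5 and 477 at E2.5. The second intron of Jarid2, a subunit of a Polycomb repressive complex, had 4618 and 2007, ranks 9 and 12, with no other gene inside.

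Exons of the same transcripts were compared with the long intron per kb, using for each intron the transcript with the highest summed exon mean. Exons that are shared with transcripts of the gene that lack the intron count in full. A ratio therefore does not describe the mRNA of that transcript alone, and the part of such other transcripts was not tested. The long introns had a median of 2.36% of the exon level at E2.5 (95% interval of the median 2.03 to 2.66 over 1260 introns) and 5.03% at E3.5 (4.58 to 5.53 over 1665 introns), where the intervals describe the introns and not the embryos. In transcripts with a summed exon mean of at least 100 the medians were 1.03% over 689 introns and 2.72% over 929 introns. The long intron exceeded its exons per kb in 88 and 130 cases, of which 0 and 1 had an exon sum of at least 100. A further 19 and 37 long introns had no exon signal in the transcript.

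**Figure D3:**
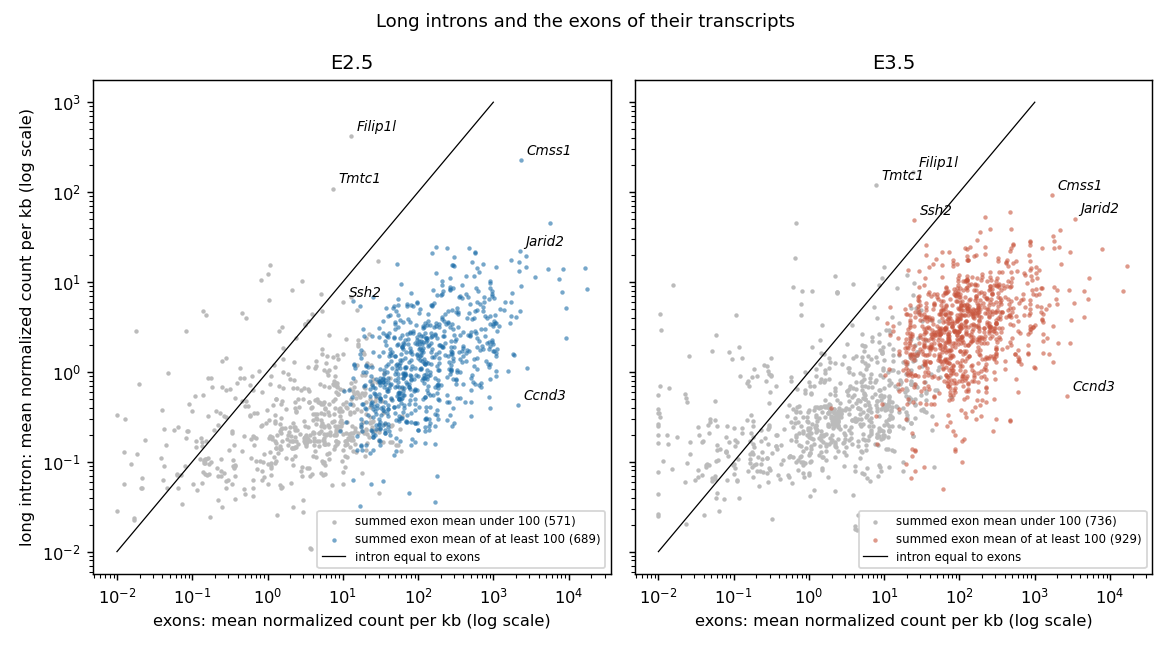
Mean normalized count per kb of each long intron against that of the exons of its transcript, at E2.5 and E3.5, both on log axes. Grey points are transcripts with a summed exon mean under 100, exon levels under 0.01 are drawn at 0.01, and the line marks equal levels. Nearly all coloured points lie below the line, Ssh2 at E3.5 being the exception.

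In transcripts with a summed exon mean of at least 100 the exception was Ssh2, with an intron of 48.7 and exons of 24.9 normalized counts per kb at E3.5, a ratio of 196%. The other introns of that Ssh2 transcript had 1.77 per kb at E3.5. At that stage and under that limit Zfhx3, a zinc finger and homeodomain transcription factor, followed with 72.2%, Tulp4, a tubby-like protein, with 66.6%, Tmcc1, a protein of the endoplasmic reticulum, with 54.9%, and Auts2 with 45.2%. Other genes without a counted exon lay inside these introns: 2 in Ssh2, 1 in Zfhx3, 4 in Tulp4, 1 in Tmcc1 and 6 in Auts2. Their part in the ratios was not tested. At E2.5 the highest ratios under the same limit were 44.7% in Tulp4, 32.4% in Znrf3, an E3 ligase that removes Wnt receptors, 30.2% in Brip1os, 26.9% in Tmcc1 and 16.4% in Ttn, the sarcomere protein titin. Inside the Brip1os intron an Ints2 exon held 12.6% of the mean.

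The lowest ratios, in transcripts with a summed exon mean of at least 100, were found in introns with means between 11.9 and 403. The first intron of Ccnd3, which encodes the cell cycle regulator cyclin D3, had 0.0199% of the exon level at E2.5 and 0.0200% at E3.5: its mean was 31.1 and 39.1 while the exons summed to 4511 and 5646. Eda, a ligand of the TNF family, had 0.0213% at E2.5, and the Mediator subunit gene Med27 had 0.0261% at E2.5 and 0.0744% at E3.5. Rnf220, an E3 ligase, and Mrps28, a mitochondrial ribosomal protein, followed at E2.5 with 0.0387% and 0.0394%. At E3.5 Cfdp1 had 0.0527%, Frmd4b 0.0610% and Snrpn, an imprinted gene for a spliceosomal core protein, 0.0715%. How far these low ratios come from exons of transcripts that lack the intron was not tested.

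Within a transcript the long intron, chosen by its mean, was usually denser than the shorter introns, which were not chosen by theirs. The median quotient of the long intron per kb over the other introns of up to 50 kb of the transcript, summed, was 1.67 at E2.5 over 1237 introns and 1.43 at E3.5 over 1648 introns, and 30.2% and 32.9% of the long introns lay below the other introns. The minimum mean selects denser introns on the long side only, so high quotients were favoured in advance, also in the subset that follows. In the 306 and 423 long introns with no other gene inside and a summed exon mean of at least 100, the medians were 1.26 and 1.23. Jarid2 lay below its other introns at both stages, with quotients of 0.624 and 0.927, and Ccnd3 far below, with 0.0307 and 0.0708. Parp8 lay above, with 3.04 and 2.05.

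Without a minimum on the intron, in transcripts with a summed exon mean of at least 100, signal per kb changed little with length between 1 and 100 kb. At E2.5 the median was 1.25 in introns of 1 to 5 kb, 1.25 in those of 20 to 50 kb, 1.08 over 639 introns of 50 to 100 kb, 0.672 over 124 introns of 100 to 200 kb and 0.134 over 25 introns above 200 kb. At E3.5 the same classes had 2.43, 2.97, 2.93, 2.61 and 1.31. The exons of these transcripts also fell with intron length, from a median of 257 per kb in the class of 1 to 5 kb to 53.4 in the class above 200 kb at E2.5, and from 240 to 61.0 at E3.5. The longest long intron, the first of Kcnip4 with 1041985 bases, had a mean of 11.3 at E2.5 and 18.1 at E3.5, and that of Asic2, an ion channel of neurons, had 16.4 and 45.1.

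**Figure D4:**
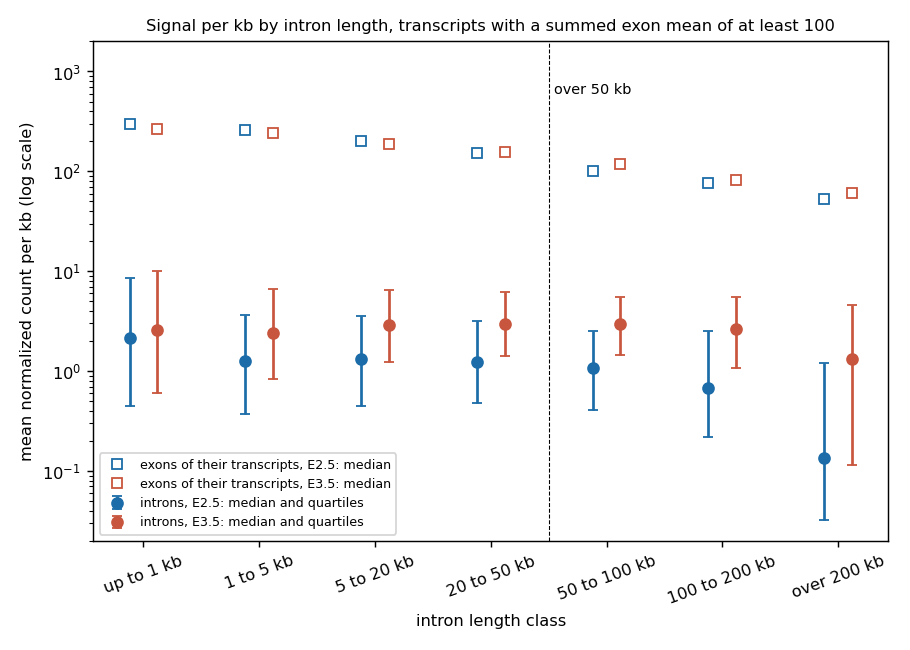
Mean normalized count per kb of introns by length class (filled points, median with quartiles) and of the exons of their transcripts (open squares, median), on a log axis, in transcripts with a summed exon mean of at least 100. To the right of the dashed line are the introns over 50 kb. Medians of introns lie between 0.134 and 2.97 and change least between 1 and 100 kb.

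Long introns were often the first intron of the transcript, counted from its 5' end: 575 of 1279 at E2.5, or 45.0%, and 769 of 1702 at E3.5, or 45.2%. The first intron made up 26.3% and 19.8% of the 23454 and 35590 shorter introns with a mean of at least 10. Position went with length, and of the 2485 and 3393 introns of 20 to 50 kb with that mean 47.2% and 43.5% were the first. Another 19.6% and 20.5% of the long introns were the second. First long introns had a median of 0.553 and 1.11 normalized counts per kb and later ones 0.614 and 1.31.

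The sets of both stages overlapped in 1185 introns, which is 92.7% of the long introns of E2.5 and 69.6% of those of E3.5. Across these 1185 introns the means of both stages had a Spearman rho of 0.654, a description over introns that share libraries and in part overlap. The 94 introns that passed only at E2.5 had a median of 16.5 there, and the 517 that passed only at E3.5 had a median of 28.1. The highest that passed only at E2.5 was that of D7Ertd443e with 130 at E2.5 and 3.51 at E3.5, with exons summing to 917 and 1.42. Epm2a, which encodes the phosphatase laforin, followed with 94.9 and 9.35.

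The highest introns that passed only at E3.5 included those of Auts2, of the myosin gene Myo1e, with 1296 at E3.5 and 4.33 at E2.5, and of the engulfment adaptor gene Gulp1, with 991 and 1.87. Fgf10, a fibroblast growth factor, had 609 and 8.46, and Lcp1, the actin-bundling protein L-plastin, 542 and 5.83. In Myo1e, Gulp1, Fgf10 and Lcp1 the exons differed in the same direction, for example from a sum of 25.3 at E2.5 to 2021 at E3.5 in Myo1e and from 135 to 11530 in Lcp1. In Auts2 the sum over all exons did not differ as far, with 142 and 177. Its last exon held most of both sums, and its first 5 exons summed to 2.65 and 20.3.

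The intron to exon ratio, a quotient within a stage and so independent of the scale of that stage, was higher at E3.5 in 575 of 655 long introns whose transcript had a summed exon mean of at least 100 at both stages, or 87.8%. An intron entered this set by reaching the minimum mean at either stage, and more introns reached it at E3.5 only than at E2.5 only. With the minimum reached at both stages the count was 541 of 617, or 87.7%, and with no minimum on the intron it was 596 of 690, or 86.4%. Its median in these introns was 0.964% at E2.5 and 2.27% at E3.5, and the median quotient of the ratios was 2.17, with quartiles of 1.37 and 3.17. Shorter introns under the same rule moved the same way: 79.0% of 32033 had the higher ratio at E3.5, with a median quotient of 2.09, and 75.6% of 17741 that reached the minimum at both stages and 72.7% of 89973 with no minimum did. The difference between both classes of introns was not tested, nor was the part of transcripts that lack the intron. The stages also differ in their mix of genotypes, as given above.

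**Figure D5:**
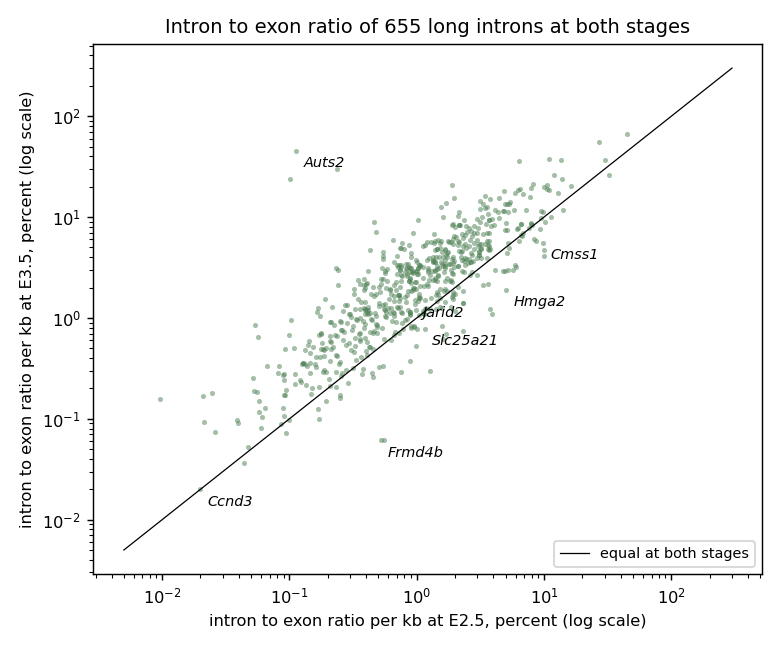
Intron to exon ratio per kb, in percent, at E2.5 and E3.5 for the 655 long introns whose transcripts had a summed exon mean of at least 100 at both stages, on log axes. Each point is 1 intron and the line marks equal ratios. Most points, 575, lie above the line, introns 1, 2 and 4 of Auts2 lie farthest above it and one of Frmd4b farthest below.

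The quotient exceeded 10 in 12 long introns and fell below 0.1 in 0. Of the 12, 9 had reached the minimum mean at E3.5 only, so their high level at E3.5 had chosen them. Among introns that reached it at both stages 3 exceeded 10 and 0 fell below 0.1, and with no minimum 12 and 1 did. In Auts2 the first intron went from 0.113% to 45.2%. Taking 1 intron per gene, the next were Mbd5, a methyl-CpG-binding domain protein, with 0.459% and 8.93%, Eda in its second intron with 0.00969% and 0.158%, Palld, the actin scaffold palladin, with 0.0532% and 0.858%, and Sgms1, a sphingomyelin synthase, with 0.233% and 3.14%. The opposite end held Frmd4b with 0.549% and 0.0619%, Serpinb6a with 1.28% and 0.301%, Slc25a21 with 3.94% and 1.09%, 2010300C02Rik with 2.30% and 0.745%, and Hmga2, an architectural chromatin protein, with 5.06% and 1.89%.

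Auts2, which encodes a protein of a Polycomb complex, shows the pattern along a transcript. It has 5 introns over 50 kb, all among its first 6 introns. From the 5' end their means at E2.5 were 7.48, 11.7, 6.21, 105 and 50.6, and at E3.5 they were 3728, 1834, 1807, 1454 and 250. Per kb the values at E3.5 were 13.2, 8.79, 6.94, 6.14 and 4.40, so the level fell in each step from the first to the last. At E2.5 the values were 0.0265, 0.0560, 0.0239, 0.445 and 0.890 per kb, so the introns nearest the 3' end were the densest. The first 5 exons summed to 2.65 at E2.5 and 20.3 at E3.5, and the 14 exons between them and the last exon summed to 60.8 and 21.1. The last exon, of 3012 bases, held 78.9 and 136 and so most of the exon signal at both stages.

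Ccser1, which had the most distinct long introns of any gene at E3.5, with 9, showed the same order. Introns 1, 3, 5, 6, 7, 8, 9 and 10 of 1 transcript had 4.40, 2.31, 1.66, 1.24, 1.09, 0.817, 0.301 and 0.0936 normalized counts per kb at E3.5, a fall at each step. At E2.5 introns 1 and 3 had 0.171 and 0.150 and the rest lay between 0.00572 and 0.0523. Cdkal1, a tRNA-modifying enzyme, did not show it: introns 4, 5, 8, 9 and 13 had 1.78, 1.64, 3.51, 1.30 and 1.80 at E3.5. Nor was it general. In genes with at least 2 such introns in 1 transcript and a summed exon mean of at least 100, the first exceeded the last per kb in 71 of 115 genes at E2.5 and in 78 of 156 at E3.5.

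Among genes for transcription factors and chromatin proteins, 16 of the 25 listed genes with an intron over 50 kb had a long intron at E2.5 and 22 at E3.5, or 64.0% and 88.0%. Of all 1847 genes with an intron over 50 kb, 50.4% and 62.4% had a long intron, a share that rises with the number of such introns in a gene, so the share of introns is given too. Of the 58 introns over 50 kb of the listed genes 56.9% and 79.3% passed, beside 36.7% and 48.9% of all. The medians of these long introns were 0.656 and 2.44 normalized counts per kb, beside 0.587 and 1.24 over all long introns. Jarid2 was the highest at both stages. Tead1, a transcription factor that acts with YAP, had 204 at E2.5 and 880 at E3.5 in its second intron, and the exons summed to 379 and 1677. Foxp1 had 472 and 1464 in its first intron while its exons summed to 24.9 and 15.9, and its other long introns at E3.5 lay between 16.1 and 30.6. Rora had 8.10 at E2.5, under the minimum, and 428 at E3.5. Esrrb, a pluripotency factor, had 55.2 and 117 beside exon sums of 1417 and 909.

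Among RNA-binding proteins 6 of 10 genes with an intron over 50 kb had a long intron at each stage. This is 60%, beside 50.4% and 62.4% of all genes with such an intron. Of their 34 introns over 50 kb 29.4% and 38.2% passed, beside 36.7% and 48.9% of all, with medians of 0.221 and 0.656 per kb. The splicing regulator Rbfox2 was the highest, with 124 and 865 in its first intron. Mbnl2 had 19.9 and 277, and Celf2 32.3 and 220. The introns of the neuronal splicing factor Rbfox1, 7 of them over 50 kb, stayed under 10 at both stages.

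Among adhesion, polarity and cytoskeleton genes the numbers were 26 and 27 of 34 genes, or 76.5% and 79.4%. Of all genes with an intron over 50 kb, 50.4% and 62.4% had a long intron. Of the 172 introns over 50 kb of the listed genes, however, only 43 and 55 passed. These are smaller shares than the 36.7% and 48.9% of all introns over 50 kb. The long introns of the listed genes had medians of 0.437 and 2.12 per kb. The polarity gene Pard3 had 259 and 1496, the junction scaffolds Magi1 and Magi3 had 148 and 1593, and 38.7 and 777, and the receptor phosphatase Ptprk had 26.1 and 982. Macf1, a linker of microtubules and actin, had 881 and 1673, and Lpp, a focal adhesion protein, 248 and 872 with all 5 of its introns over 50 kb passing at both stages. Of the synaptic genes Nrxn3 lay under 10 at both stages, and the neurexin family member Cntnap2, with 234 and 228 in 1 of its 14 such introns, had exon sums of 1.25 and 10.04. Nlgn1, a synaptic adhesion molecule, had 196 and 181 beside exon sums of 2.29 and 0.0183.

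Genes at common fragile sites, which replicate late and break under replication stress, had a long intron in 10 of 11 cases at E2.5 and in 11 at E3.5, but of their 61 introns over 50 kb 29.5% and 47.5% passed, beside 36.7% and 48.9% of all. Their long introns had medians of 0.478 and 1.30 per kb. Wwox, an oxidoreductase, had 537 and 996 in its last intron of 639386 bases, and Exoc4, a subunit of the exocyst, had up to 91.7 and 817. In Naaladl2 1 intron held 546 and 541 beside exon sums of 1.498 and 1.03. Of the signalling genes 9 of 12, or 75%, had a long intron at each stage, beside 50.4% and 62.4% of all genes with such an intron. Of their 36 introns over 50 kb 41.7% and 58.3% passed, beside 36.7% and 48.9% of all, with medians of 0.317 and 0.808 per kb. The guanine nucleotide exchange factor gene Dock4 had 194 and 708, Gsk3b, a kinase of the Wnt pathway, 195 and 547, and Pde4d, a cAMP phosphodiesterase, 141 and 690. Egfr and Erbb4 stayed under 10 at both stages.

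At the limits of the rule, the introns just above a mean of 10 at E2.5 were those of Nrcam, Kirrel3 and Oprm1, with 10.005, 10.020 and 10.023, and just below were those of Fgf1, Itpk1 and another Kirrel3 intron, with 9.93, 9.97 and 9.99. At E3.5 Prkag2, Pde8b and Anks1b lay just above, with 10.005, 10.023 and 10.035, and Ppp2r2c, Sntb1 and A830018L16Rik just below, with 9.95, 9.95 and 9.98. By length, Il34 and Sfmbt1 were among the introns just over the limit at E2.5, at 50083 and 50087 bases, and Zhx3, Sppl3 and Desi2 just under it, at 49917, 49946 and 49954 bases. At E3.5 2010111I01Rik and Mipol1 were among those just over the limit and Desi2, Xrcc4 and Xxylt1 just under it. The share of introns over 50 kb that were long introns ranged from 28.1% on chromosome X to 48.9% on chromosome 19 at E2.5, and from 38.5% on chromosome 3 to 63.6% on chromosome 19 at E3.5. Chromosome 11, which carries Mettl16, had 44.8% and 61.5%.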

How the data were processed

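Single embryos were amplified by Smart-seq2 from polyadenylated RNA, and the libraries lack strand. Per the labels and the study's methods, the authors aligned reads to mm10 with STAR, counted single exons and introns of RefSeq transcripts with featureCounts and genes with Salmon 0.7.2, and normalized with DESeq2 1.18.1. The deposited signal used here is the authors' mean normalized count over all embryos of a stage, all genotypes pooled. The other deposited columns hold the authors' own comparisons of genotypes (log2 fold changes and adjusted p-values), which were not used, so KO was not compared with WT or HET. Read depth of single embryos was not used here, and precision between embryos is unknown. The in vitro methylation table holds no introns and was not used.

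Introns were taken once per position. The study's methods shorten introns at both sides before counting, while the deposited coordinates abut the exons. Overlap and multi-mapping settings of the counting are not given in the sources used here. Nested genes came from GENCODE vM21, splice sites from GRCm38.p6 (RefSeq, all 199024 introns read), with Python 3.11.15 and pandas 2.3.3. Intervals are exact binomial for the rank of a median and Wilson for a share, and cover no variation between embryos. Scripts were tested on simulated data. Named introns are the 10 highest, the 5 highest per kb, the 5 longest, the 5 highest and 5 lowest in ratio, those next to each limit and gene lists; introns passing at 1 stage, those with the largest shift in ratio, Ccser1, Cdkal1 and the exons of Auts2 were chosen after their values were seen. The members and lists were chosen with earlier results of these data known. The alternatives were other limits of length and mean, introns without nested genes, 1 intron per gene, and other exon values. Some named results are not reported here.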

Additional observations from a re-analysis of the deposited data

How the results depend on the processing

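No paired analysis was possible because the values are the authors' means over all embryos of a stage and carry no replicate numbers. For the same reason the planned tests of KO against WT and HET, with another tool, without a filter and without single WT embryos, were not run. Across 11 results and 100 values under other settings, 48 stayed inside the interval or within 1.5 times the count and 52 moved. The share of the summed intron signal has no interval and counted as moved unless its rounded value was unchanged, so it moved in every setting. Values are given for E2.5 and then E3.5. With a length limit of 100000 bases the number of long introns fell to 421 and 579, the median per kb to 0.217 and 0.400 and the share of the summed intron signal to 7.29% and 7.08%, against 12.0% and 15.3%, while the median intron to exon ratio rose to 5.33% and 10.6% and the shared introns came to 89.3% and 64.9%. With 40000 bases the medians were 0.691 and 1.496 per kb, the shares 13.8% and 18.4% and the ratios 1.99% and 4.25%. A minimum mean of 20 gave 0.928 and 1.76 per kb, shares of 11.8% and 15.2%, a ratio at E3.5 of 4.52% and 62.1% of the E3.5 introns shared, and a minimum of 5 gave 0.347 and 0.772 per kb, shares of 12.1% and 15.4% and 74.0% shared. Introns with no exon of another gene inside numbered 505 and 712, held 2.56% and 4.90% of the signal, had ratios of 1.72% and 4.04% and were shared in 90.5% and 64.2%. With 1 intron per gene the shares were 10.5% and 12.2%, the ratios 2.77% and 5.78%, and 87.3% of the E2.5 introns were shared. The ratio was 1.21% and 3.71% over internal exons, 1.40% and 4.58% over the median of single exons, and 1.03% and 2.72% with a summed exon mean of at least 100, and it was lower at E2.5 than at E3.5 in each setting run. Of 5 settings chosen after seeing the data, a minimum mean at both stages and no minimum left the share of long introns with the higher ratio at E3.5 at 87.7% and 86.4%, leaving out the Cmss1 and Filip1l introns changed the share to 7.60% and 13.99%, 1 intron per overlapping stretch to 8.53% and 12.8%, and leaving out introns in which 1 nested exon holds at least 50% of the mean to 11.2% and 14.2%.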
